A study of Homo sapiens with 12 samples.

Results

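TREM2 and 8 genes that travel with it in lipid-handling macrophages were followed in H1299 and THP-1 cells. The 9 genes were chosen by name from 20307 genes of the deposited table, and each symbol matched 1 row: TREM2, TYROBP, APOE, APOC1, APOC2, GPNMB, LPL, FABP4 and FABP5. RNA sequencing covered 12 libraries in 4 groups of 3. H1299 is a lung carcinoma line, and its 2 groups carry the genotype labels WT (titles C) and DCBLD2 overexpression (titles OE). THP-1 is a monocytic leukaemia line, labelled WT in both of its groups, that becomes macrophage-like when treated with PMA, a phorbol ester. After PMA for 24 h, these cells spent 48 h exposed to control H1299 (titles TAM-C) or to DCBLD2 H1299 (titles TAM-OE). All 6 THP-1 libraries therefore share PMA and exposure to H1299, and a THP-1 group kept without H1299 was not analysed here. Co-culture is named in the series text but supernatant in the sample labels, and contact between the cells is not known here. The labels name neither an empty construct for the H1299 control nor separate cultures for the replicates, so the spread behind each p-value is that between these libraries and may be technical.

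DCBLD2 itself went against the H1299 labels. Its level was 247, 148 and 196 TPM (a transcript level scaled by gene length and by library) in the H1299 libraries labelled control and 105, 98.2 and 92.5 TPM in those labelled DCBLD2, a log2 fold change of -1.27 ± 0.17 (SE; edgeR quasi-likelihood test, adjusted p = 0.00284). The groups are therefore called labelled control and labelled DCBLD2, and every direction is labelled DCBLD2 against labelled control. DCBLD2 was lower in the THP-1 libraries labelled DCBLD2 as well, at 6.47 TPM ± 0.175 against 11.9 TPM ± 0.406 (SD, n = 3), and on the log2 scale this was -0.81 ± 0.05 (SE; edgeR, adjusted p = 3.18e-13). No direction below can be read as an effect of more DCBLD2.

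TREM2 is a surface receptor of macrophages and microglia that binds lipids, lipoproteins and cell debris. It has no signalling tail of its own and signals through TYROBP (DAP12), an adaptor with an immunoreceptor tyrosine-based activation motif that several other myeloid receptors share. Macrophages that take up much lipid, in fat tissue, plaques and tumours, are known to carry TREM2 together with apolipoproteins, lipoprotein lipase, fatty acid binding proteins and the lysosomal glycoprotein GPNMB, a set often called lipid-associated macrophage genes.

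Upstream sequences from RefSeq (GRCh38.p14) are shown for the receptor and its adaptor, which both rose in THP-1, and for GPNMB, which fell. RefSeq promoters of 300 bases, 250 before and 50 after each start, were matched for 6 of the 9 genes at 8 start sites. Both strands were searched for GAAANNGAA, the core that interferon regulatory factors bind, and for the E-box CACGTG. The search also covered TCATGTG, known as the M-box, and AGGTCA, the unit that nuclear receptors bind. The last of the 6 motifs were GAGGAA, which is the core bound by PU.1, and the TATA box, written here as TATAAA. Bases that GENCODE release 29 places in an exon were left out of the first 2 sequences, which left the stretch from -250 to -71 of the TREM2 start and from -250 to -1 of the TYROBP start. TREM2 is chr6:41163187-41163366 on the minus strand, and TYROBP is chr19:35908296-35908545 on the minus strand. Both GPNMB stretches lie wholly in exon bases of GENCODE release 29, which places the start of the gene further upstream than this RefSeq start. Capitals mark motif matches.
TREM2: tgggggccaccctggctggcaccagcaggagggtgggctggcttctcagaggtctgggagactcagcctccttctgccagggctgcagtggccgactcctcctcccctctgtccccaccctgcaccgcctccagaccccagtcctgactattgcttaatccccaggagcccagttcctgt
TYROBP: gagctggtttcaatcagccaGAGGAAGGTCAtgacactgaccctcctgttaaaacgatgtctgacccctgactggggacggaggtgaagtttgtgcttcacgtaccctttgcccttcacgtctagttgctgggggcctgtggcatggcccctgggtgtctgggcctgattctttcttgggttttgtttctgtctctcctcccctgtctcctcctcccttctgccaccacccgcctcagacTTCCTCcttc
GPNMB (chr7:23246642-23246668, plus strand): gagtcataagCACATGAgttgtaagag
GPNMB (chr7:23246703-23246729, plus strand): ttaataccatCACATGAtcctccccga

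The TREM2 promoter window of 300 bases held none of the 6 motifs, which says only that these letters are not in it. TYROBP held GAGGAA, the core of the myeloid factor PU.1, starting at -230 and, on the other strand, at -10. It also held AGGTCA at -225, which shares 1 base with the first of these. GPNMB held the M-box, a site type of the factors MITF and TFEB, on the opposite strand at -123 and at -62, and GAGGAA at 34. APOC2 held TATAAA at -30 and the repeat unit on the other strand at -156, and APOE held GAGGAA at 2 of its 3 start sites. APOC1 held none. Among 35116 RefSeq promoters of the same length, 27.9% held GAGGAA, 13.8% AGGTCA, 11.5% TATAAA, 8.11% GAAANNGAA, 7.26% CACGTG and 2.92% TCATGTG.

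Estimated reads per library ranged from 14578887 to 23388187 (H1299) and from 18606739 to 26787853 (THP-1). THP-1 replicates lay close together, with a coefficient of variation beyond counting noise of 1.96% common to all genes against 13.3% in H1299. In THP-1, 68.1% of 13120 genes tested passed the test in either direction (34.5% higher and 33.6% lower), 7.69% passed it with a change of at least 2-fold, and the groups did not overlap in TPM for 64.9%. A count of members near these shares is therefore not a result about the members. The median log2 fold change of all genes tested was 0.00046. The share of reads from 13 mitochondrially encoded genes was 3.48% to 3.51% in THP-1 labelled control and 2.46% to 2.58% in labelled DCBLD2, and that of 82 ribosomal protein genes was 3.73% to 3.75% against 5.14% to 5.42%. Their part in the results was not tested. All 16 macrophage markers, among them CSF1R, CD14 and SPI1, were above 0 TPM in at least 1 library of each THP-1 group. CD163 (0.262 and 0.698 TPM) and CYBB (0.792 and 0.943 TPM) were the lowest. In H1299 only 4 of the 16 were at 0 throughout labelled control and 3 throughout labelled DCBLD2, so this count does not show identity. Their summed level set the lines apart, at 140 to 205 TPM in H1299. It was 4684 to 4738 TPM in THP-1 labelled control and 6275 to 6325 TPM in THP-1 labelled DCBLD2. In THP-1 counts 13 of the 16 were higher, with CD14 at a log2 fold change of 1.49, and 3 lower (ITGAM at -0.87, LAPTM5 at -0.17 and CD68 at -0.08). These markers moved with the members in THP-1, and their part in the members' changes was not tested. Carcinoma markers gave 3 higher and 8 lower of the 15 that THP-1 counts allowed to be tested, with a summed level of 479 to 495 TPM in labelled control and 424 to 439 TPM in labelled DCBLD2. The markers named here were chosen after their values were seen.

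In THP-1, 8 of the 9 genes were higher and 1, GPNMB, was lower in labelled DCBLD2, all past the test and all kept by the filter on low counts. TREM2, FABP4, APOC2 and TYROBP changed at least 2-fold. The median log2 fold change of the 9 was 0.62. Their summed level was 5500 TPM ± 29.9 (SD, n = 3) in labelled control and 9114 TPM ± 161 (SD, n = 3) in labelled DCBLD2. In these bulk libraries, more or fewer cells expressing a gene and more or less RNA per cell cannot be told apart.

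**Figure D1:**
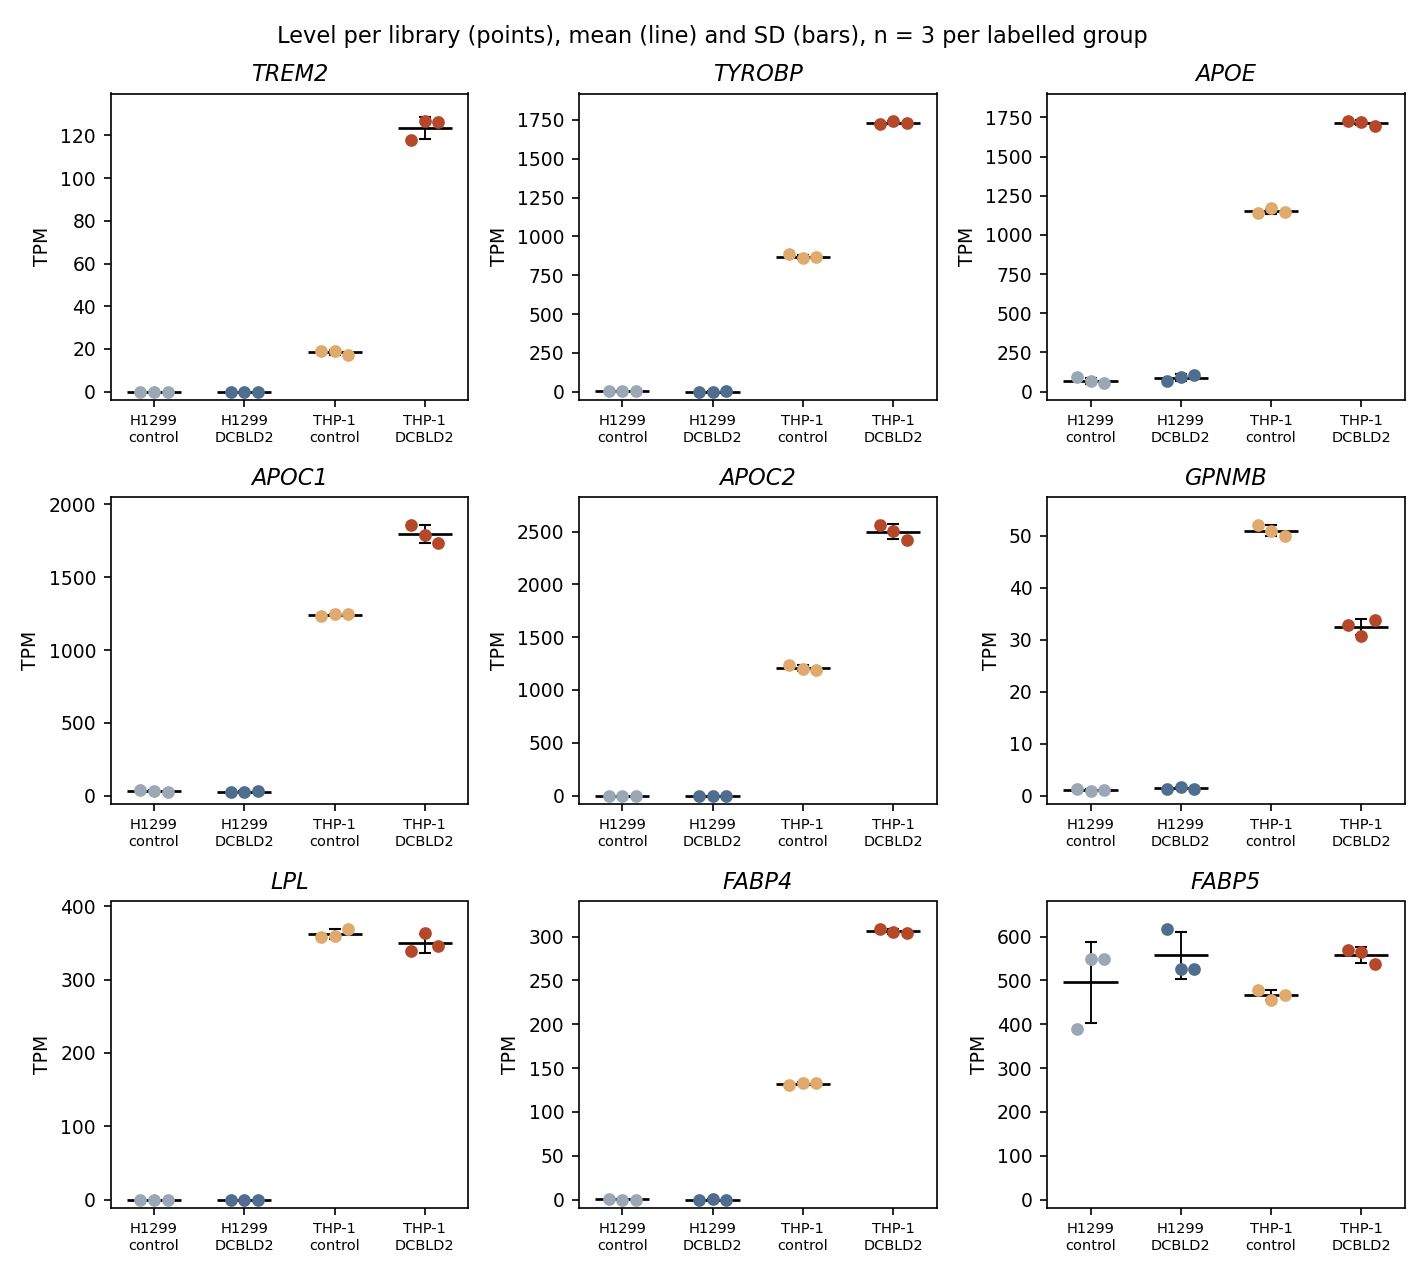
Level of each of the 9 genes in TPM (linear vertical axis, 1 panel per gene) in the 12 libraries, by cell line and label on the horizontal axis. Points are libraries, lines are means and bars are SD (n = 3). TREM2 is at 0 in all 6 H1299 libraries and between 118 and 127 TPM in THP-1 labelled DCBLD2, and FABP5 alone is at a like level in all 4 groups.

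The receptor TREM2 (ENSG00000095970, chr6:41158506-41163186, minus strand) was at 19.2, 19.0 and 17.1 TPM in the THP-1 libraries labelled control and at 118, 127 and 126 TPM in those labelled DCBLD2. All 3 libraries of the second group lay far above all 3 of the first. It rose by 2.78 ± 0.06 (SE) on the log2 scale, or 6.87-fold (edgeR, adjusted p = 1.35e-23), which placed it at rank 28 from the top among 13120 genes. By level it moved from between ranks 5609 and 5928 of all genes in a library to between 1171 and 1257.

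TYROBP (ENSG00000011600, chr19:35904401-35908295, minus strand), which carries the signal of TREM2 into the cell, was already abundant in labelled control, at 883, 859 and 864 TPM. In labelled DCBLD2 it was at 1723, 1746 and 1731 TPM, with no overlap. It rose by 1.03 ± 0.02 (SE) on the log2 scale, or 2.05-fold (edgeR, adjusted p = 3.25e-24). Because TREM2 rose by more than its adaptor, the TPM ratio of TYROBP to TREM2 went from 47.2 ± 2.80 to 14.0 ± 0.521 (SD, n = 3). It was 45.9, 45.3 and 50.5 in the labelled control libraries and 14.6, 13.7 and 13.7 in the labelled DCBLD2 libraries. TYROBP stayed in excess of the receptor in every THP-1 library.

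The 3 apolipoproteins were the most abundant of the 9 genes in THP-1 labelled control. APOE, the ligand of lipoprotein receptors that macrophages secrete with exported cholesterol, lies on chr19:44905754-44909393. APOC1, a small inhibitor of lipoprotein uptake and lipolysis, lies 4853 bases downstream (chr19:44914247-44919349), and APOC2, the activator of lipoprotein lipase, lies a further 26632 bases on (chr19:44945982-44949565), all on the plus strand. APOE was at 1139, 1169 and 1147 TPM in THP-1 labelled control and 1730, 1718 and 1698 TPM in labelled DCBLD2. APOC1 was at 1236, 1247 and 1245 TPM against 1861, 1793 and 1737 TPM. APOC2 was at 1237, 1194 and 1186 TPM against 2565, 2510 and 2421 TPM. None of these 3 genes had overlapping groups.

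The 3 neighbours did not rise equally. APOE rose by 0.61 ± 0.02 and APOC1 by 0.62 ± 0.03 on the log2 scale (SE), close to 1.52-fold and 1.54-fold. APOC2 rose by 1.08 ± 0.02 (SE), or 2.12-fold, and all 3 had adjusted p-values by edgeR of 4.25e-17 or smaller. The TPM ratio of APOE to APOC1 was 0.927 ± 0.0094 in labelled control and 0.955 ± 0.0242 in labelled DCBLD2 (SD, n = 3), and its groups overlapped. That of APOE to APOC2 went from 0.955 ± 0.0305 to 0.687 ± 0.0138 (SD, n = 3), without overlap. APOC2 shares exons with the read-through gene APOC4-APOC2, so its reads were divided between them by estimate. The read-through gene was at 135 TPM ± 0.697 in labelled control and 204 TPM ± 11.1 (SD, n = 3) in labelled DCBLD2, and the sum of both was 1341 and 2702 TPM, so the division does not turn the direction of APOC2.

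LPL, the lipoprotein lipase that releases fatty acids from triglyceride-rich particles and needs APOC2 to do so, barely differed. Its level was 358, 359 and 369 TPM in THP-1 labelled control and 339, 364 and 346 TPM in labelled DCBLD2, and these ranges overlapped. In counts it was higher by 0.10 ± 0.02 (SE) on the log2 scale, or 1.07-fold (edgeR, adjusted p = 1.46e-05). With limma on log2(TPM + 1) it was lower by a log2 fold change of -0.05 ± 0.03 (SE; adjusted p = 0.169), so its direction depends on the scale. The TPM ratio of APOC2 to LPL rose from 3.33 ± 0.123 to 7.15 ± 0.365 (SD, n = 3), with no overlap. LPL lies on chr8:19901717-19967259, plus strand.

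Fatty acid binding proteins carry lipids within the cell. FABP4, the form best known from fat cells and macrophages, was at 130, 134 and 133 TPM in THP-1 labelled control and 309, 305 and 304 TPM in labelled DCBLD2. The groups lay far apart, and FABP4 rose by 1.25 ± 0.03 (SE) on the log2 scale, 2.37-fold (edgeR, adjusted p = 2.78e-22). Of 10 adipocyte markers, 3 were tested in THP-1. CFD was higher (log2 fold change 1.75), PLIN4 was lower (-1.24) and ADIRF did not pass the test (-0.13). ADIPOQ, CIDEA and RETN were listed at 0 in all 6 libraries, while PLIN1, CIDEC, LEP and GPD1 were above 0 in some. The summed level of that list was 35.0 to 39.5 TPM in labelled control and 113 to 118 TPM in labelled DCBLD2, nearly all of it CFD (complement factor D), at 34.6 and 114 TPM, which THP-1 also expresses.

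FABP5, the epidermal form, is widely expressed. It was at 479, 456 and 467 TPM in THP-1 labelled control and 570, 565 and 538 TPM in labelled DCBLD2. These groups did not overlap, but the rise was small, at 0.29 ± 0.03 (SE) on the log2 scale or 1.23-fold (edgeR, adjusted p = 4.52e-10). It failed the test with all 12 libraries in one fit (adjusted p = 0.0633). The TPM ratio of FABP5 to FABP4 fell from 3.53 ± 0.133 to 1.82 ± 0.0473 (SD, n = 3). FABP5 has processed pseudogenes of near-identical sequence, which makes its count uncertain. It also overlaps an antisense gene in an exon, and strand handling is not given in the sources used here. FABP4 lies on chr8:81478419-81483263, minus strand, and FABP5 on chr8:81280363-81284777, plus strand.

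GPNMB, a glycoprotein of lysosomes and the cell surface that marks lipid-loaded macrophages, went the other way. It was at 52.2, 51.0 and 49.9 TPM in THP-1 labelled control and 32.9, 30.8 and 33.9 TPM in labelled DCBLD2, with no overlap. Its log2 fold change of -0.62 ± 0.04 (SE), 1.53-fold lower, passed the test (edgeR, adjusted p = 5.36e-13). The gene lies on chr7:23235967-23275108, plus strand.

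**Figure D2:**
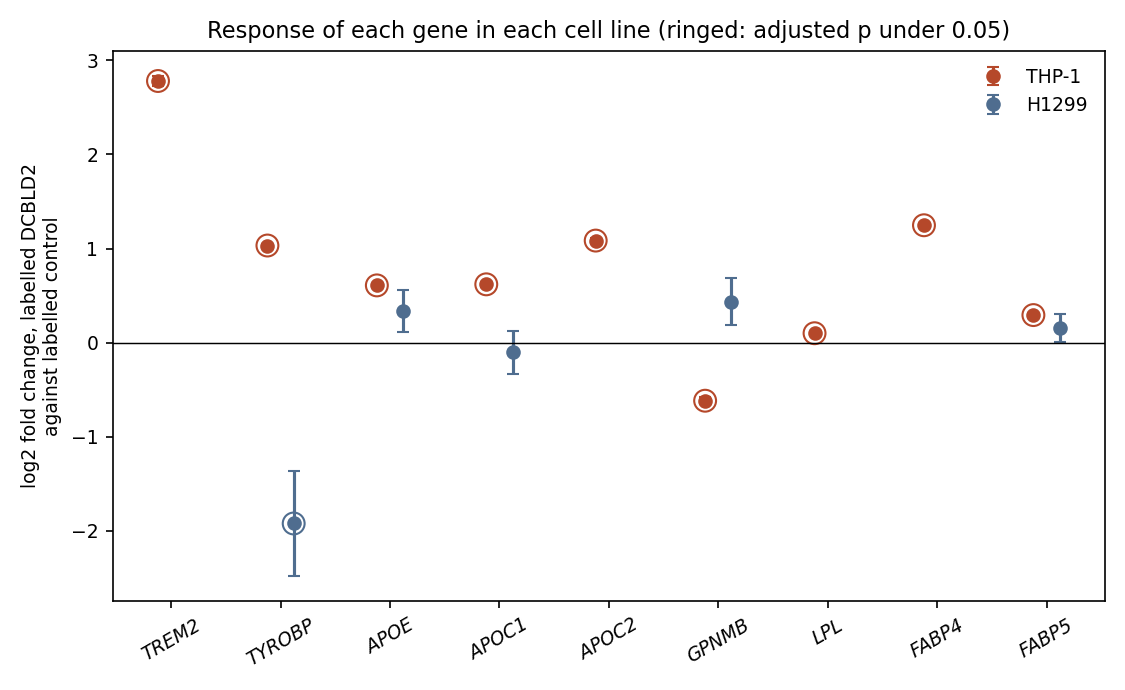
Log2 fold change of labelled DCBLD2 against labelled control (vertical axis) for each of the 9 genes (horizontal axis) in THP-1 and H1299, with SE bars from edgeR. Rings mark an adjusted p under 0.05. In H1299, 4 genes have no point because too few reads were counted. TREM2 stands highest in THP-1 at 2.78, and GPNMB lies below 0 at -0.62.

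By level, THP-1 labelled control ran from APOC1, APOC2, APOE and TYROBP down through FABP5, LPL, FABP4 and GPNMB to TREM2. APOC1 and APOC2 overlapped in that order, and the other neighbours did not. In labelled DCBLD2 the order was APOC2, then APOC1, TYROBP and APOE, then FABP5, LPL, FABP4, TREM2 and GPNMB. APOC1 overlapped with TYROBP, and TYROBP with APOE, while the others stood apart. TREM2 and GPNMB thus changed places, from 18.4 TPM ± 1.14 and 51.0 TPM ± 1.14 to 124 TPM ± 5.13 and 32.5 TPM ± 1.56 (SD, n = 3).

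Of 7 TPM ratios computed between members within a THP-1 library, 6 had groups that did not overlap, all but APOE to APOC1. Single genes did not overlap for 64.9% of those tested in THP-1, and the share for ratios of other gene pairs was not computed. The count is therefore not read as a result about the members. An exact permutation test, two-sided, gave each of the 6 ratios without overlap a p of 0.1, the smallest that 3 against 3 libraries allows. The Benjamini-Hochberg value was 0.117 over the 7. By this exact test no ratio can pass 0.05 with 3 against 3 libraries.

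**Figure D3:**
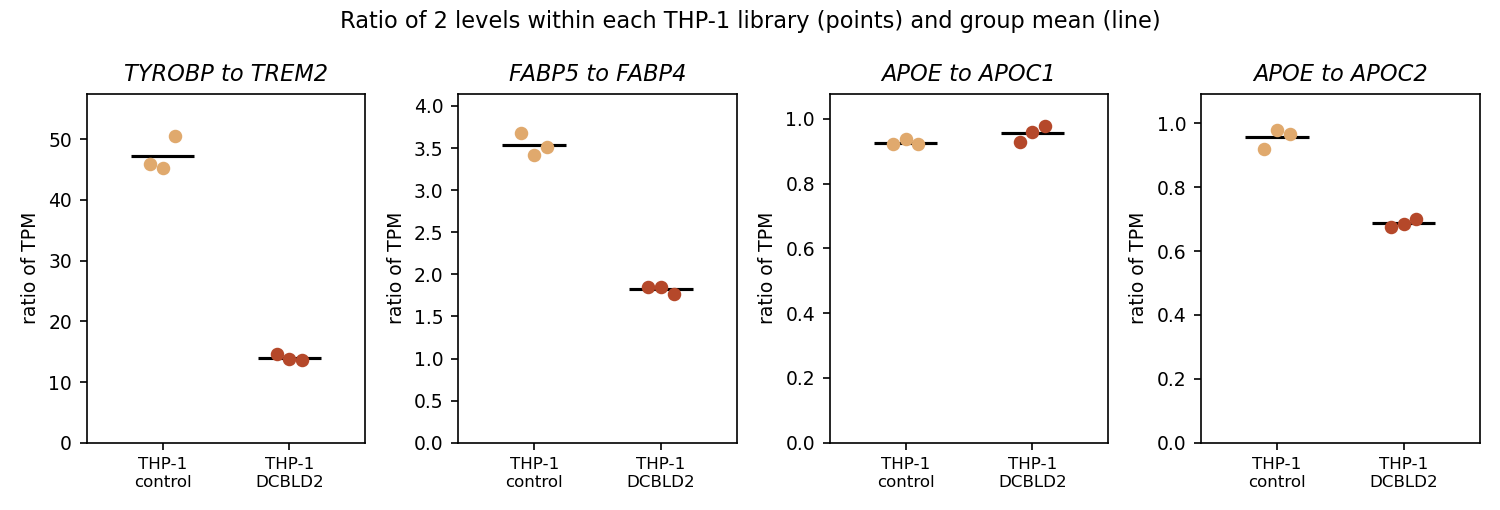
Ratio of the TPM of 2 genes within each THP-1 library (linear vertical axis from 0, 1 panel per ratio), by label on the horizontal axis. Points are libraries and lines are group means (n = 3). TYROBP to TREM2 drops from 47.2 to 14.0 and FABP5 to FABP4 from 3.53 to 1.82, while APOE to APOC1 overlaps at 0.927 and 0.955.

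Downstream of TREM2 and TYROBP, 10 of 19 tested signalling genes were higher in THP-1 and 5 lower, with a median log2 fold change of 0.15. These are 52.6% and 26.3%, against 34.5% and 33.6% of all genes tested. PIK3R1, a regulatory subunit of phosphoinositide kinase, rose from 7.69 to 16.0 TPM (log2 fold change 1.24). CARD9, an adaptor toward NF-kB, rose from 19.9 to 43.6 TPM (1.17), and the docking protein DOK3 rose from 72.8 to 124 TPM (0.57). LCP2, the adaptor SLP-76, fell from 267 to 191 TPM (-0.43). SYK, the kinase that binds the phosphorylated adaptor, was at 34.6 and 33.6 TPM and did not pass the test (adjusted p = 0.835 by edgeR). It was named after its values were seen.

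Genes that shed TREM2 or partner with it gave 4 higher and 1 lower of 6 tested (median 0.36). These few genes make 66.7% and 16.7%, against 34.5% and 33.6% of all genes tested. SPI1, which encodes PU.1, rose by 0.51 on the log2 scale, the TREM2 sheddase ADAM10 by 0.36 and the plexin PLXNA1 by 0.37. CLU, an extracellular chaperone and TREM2 ligand, fell from 68.0 to 13.7 TPM (-2.48). In a list of TREM family members and other myeloid receptors, most of which use TYROBP, 3 were higher and 3 lower of 9 tested (median -0.06). At 33.3% in each direction, this list was close to the shares of all genes. The list also holds CD33, an inhibitory receptor not known to use TYROBP. CD33 did not pass the test, and its value of -0.06 is the median. CD300LB fell from 38.1 to 6.29 TPM (-2.56) and PILRB from 9.64 to 7.02 TPM (-0.45). TREML1 (2.38) and CLEC5A (2.09) rose but stayed low, at 1.21 and 1.59 TPM in labelled DCBLD2.

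In THP-1, 24 other lipid-associated macrophage genes could be tested, of which 7 were higher and 16 lower, or 29.2% and 66.7% against 34.5% and 33.6% of all genes, with a median of -0.37. CHI3L1, a secreted chitinase-like protein, fell from 18498 to 9336 TPM (-0.95). The lysosomal protease CTSB fell from 1783 to 1044 TPM (-0.75), the lipid droplet coat PLIN2 from 338 to 164 TPM (-1.01) and the integrin ITGAX (CD11c) from 330 to 189 TPM (-0.80). The 7 that rose were SPP1, CD36, NPC2, CTSD, CTSZ, NUPR1 and CAPG, at log2 fold changes of 0.12 to 0.74, and were named after their values were seen. Earlier results of these data were known when the list was drawn up.

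Of 19 genes of the MITF and TFE family and its lysosomal targets, 5 were higher and 13 lower (68.4% against 33.6% of all genes), with a median of -0.30. The proton pump subunit ATP6V1H (-0.42), the sialidase NEU1 (-0.48) and FNIP2 (-0.51) fell, while the family member TFEC rose (0.90). The other 4 that rose, named after their values were seen, were TFE3 (0.28), FNIP1 (0.49), MCOLN1 (0.29) and SQSTM1 (0.09). Of 7 tested genes linked to GPNMB as partners, 1 was higher and 5 lower (14.3% and 71.4%, against 34.5% and 33.6% of all genes). CD44 was at -0.35, SDC4 at -0.21 and PTPRJ at -0.18, and ADAM10 was higher. Osteoclast markers, a cell type that also carries GPNMB, gave 1 higher and 7 lower of 8 tested (12.5% and 87.5%). Their summed level was 2756 to 2798 TPM in labelled control and 2105 to 2189 TPM in labelled DCBLD2, most of it MMP9. None of the 9 was at 0 throughout a THP-1 group, and their part in the fall of GPNMB was not tested.

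Among nuclear receptors of lipid metabolism and their targets, 5 were higher and 11 lower of 22 tested (median -0.09). NR1H3, which encodes the oxysterol receptor LXR alpha, fell from 268 to 118 TPM (-1.18), and the desaturase SCD (-0.47), the transglutaminase TGM2 (-0.47) and PLIN2 fell as well. The 5 that rose were CD36 (0.45), SREBF1 (0.31), NR1H2 (0.20), PPARG (0.14) and RXRA (0.05). ABCA1 (-0.0007) and ABCG1 (0.004) did not pass the test (adjusted p = 0.976 and 0.894 by edgeR). Those that rose or did not pass were named after their values were seen. APOE, APOC1, APOC2 and LPL are textbook LXR targets, and of these the apolipoproteins rose. A change in LXR activity was not tested. Lipoprotein receptors and lipolysis genes gave 6 higher and 8 lower of 21 tested (median 0.08). At 28.6% and 38.1%, they were close to the shares of all genes. The receptors LRP8 (-0.92) and LRP1 (-0.56) fell. Of 6 tested fatty acid and retinoid carriers, 2 were higher (the acyl-CoA binding protein DBI at 0.91 and SCP2 at 0.36) and 3 lower (CRABP2 at -0.85, GOT2 at -0.66 and CRABP1 at -0.92). No FABP gene beside the 2 members passed the filter on low counts in THP-1.

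**Figure D4:**
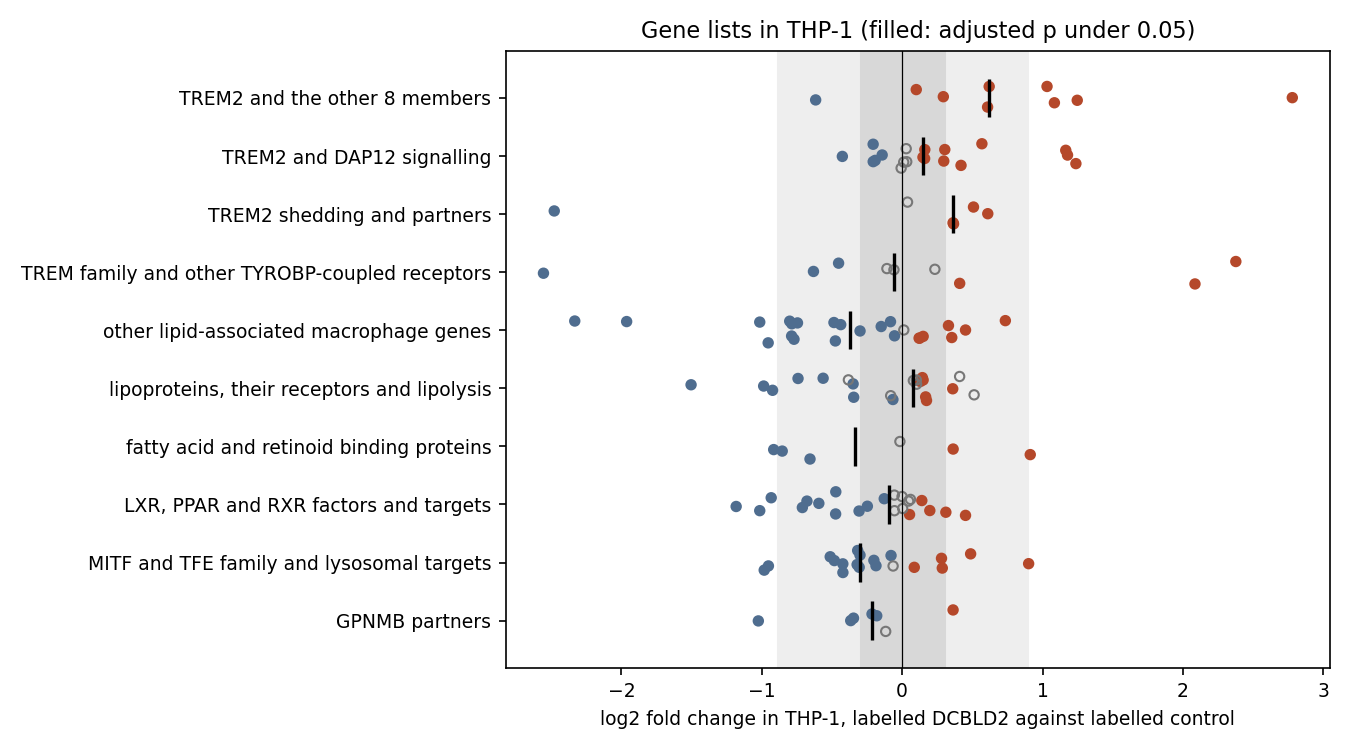
Log2 fold change in THP-1 (horizontal axis) of the tested genes in each list (rows). Each point is a gene, filled where the adjusted p is under 0.05 and red if higher or blue if lower, black ticks are list medians, and grey bands span the middle 50% and 90% of all genes tested. The 9 genes have a median of 0.62, and the other lipid-associated macrophage genes one of -0.37.

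The 5 genes whose levels were most like those of TREM2 over the 12 libraries were POMC, CADM1, OAS2, LPAR6 and OAS1. Their Pearson correlations of log2(TPM + 1) with TREM2 lay between 0.998 and 0.999 among 11082 genes compared. Like TREM2, each was at or near 0 in H1299 and rose in THP-1 labelled DCBLD2. OAS2 and OAS1, interferon-inducible oligoadenylate synthetases, went from 5.52 to 23.5 TPM and from 11.3 to 39.1 TPM. CADM1, a cell adhesion protein, went from 7.91 to 29.1 TPM, and POMC, a hormone precursor, from 2.31 to 6.74 TPM. The points share cell line and group, so the correlation describes a pattern over 4 groups. FABP4 was the member closest to TREM2, at 0.975, and FABP5 the farthest, at 0.08.

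In H1299 only 5 of the 9 genes had enough reads to be tested, and 1 of them, TYROBP, was lower (of 12773 genes, 20.9% passed the test, 10.3% higher and 10.6% lower, and 3.5% passed it with at least 2-fold). TREM2 and LPL had 0 reads in all 6 libraries. For counting error only, a count of 0 allows up to 3 of the 63675884 reads of the labelled control group and 3 of the 54820372 of the labelled DCBLD2 group. APOC2 had 1 read in all and FABP4 had 14, of which 10 were in 1 labelled control library. APOE was at 90.7, 65.9 and 53.2 TPM in labelled control and 66.4, 91.9 and 109 TPM in labelled DCBLD2, and these ranges overlapped. Its log2 fold change of 0.34 ± 0.23 (SE) did not pass the test, nor did those of APOC1 (-0.10 ± 0.23, SE), GPNMB (0.43 ± 0.25, SE) and FABP5 (0.16 ± 0.15, SE), with adjusted p-values of 0.235 to 0.779 by edgeR.

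TYROBP in H1299 was at 2.06, 3.04 and 2.60 TPM in labelled control and 0.677, 0.168 and 1.20 TPM in labelled DCBLD2, and the groups did not overlap, as for 37.5% of genes tested. TYROBP had a log2 fold change of -1.92 ± 0.56 (SE; edgeR, adjusted p = 0.0369). This rests on 55 reads in labelled control (13, 22 and 20) and 12 in labelled DCBLD2 (3, 1 and 8). Only the labelled control libraries reached the filter minimum of 10 counts. TYROBP thus entered the test only through the group where it was high, which limits what the call shows. The call was lost without labelled control replicate 2 (adjusted p = 0.0641) or 3 (0.0799) and without labelled DCBLD2 replicate 1 (0.0918) or 2 (0.137). Of the 4 macrophage markers tested in H1299, CD68 passed the test as higher (log2 fold change 0.50). ITGAM (0.87), CYBB (-0.07) and CORO1A (-0.38) did not pass it. The remaining markers were not tested. PTPRC, AIF1 and MARCO were listed at 0 in all 6 H1299 libraries, and the rest were above 0 in some of them. LYZ had the highest mean of these, at 0.253 TPM in labelled control and 0.127 TPM in labelled DCBLD2. SPI1 was at 0.132 and 0.146 TPM and FCER1G at 0.137 and 0.160 TPM. The summed level of the 16 lay between 140 and 205 TPM, nearly all of it CD68 (136 TPM in labelled control and 198 TPM in labelled DCBLD2), a lysosomal protein that H1299 expresses. The source of the TYROBP reads was not tested.

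Between cell lines, 8 of the 9 genes were higher in THP-1 labelled control than in H1299 labelled control, in a comparison where 85.9% of 14244 genes passed the test (42.3% higher), 56.2% passed it with at least 2-fold and 85.2% had groups that did not overlap. Cell line, PMA and exposure to H1299 cannot be told apart in it. By share of reads, LPL was at least 11325-fold higher and TREM2 at least 202-fold higher. The floor for these bounds was 3 counts over the H1299 group. By the same unscaled share, TYROBP was 302-fold higher (95% exact binomial interval 232 to 401, counting error only), APOC1 37.0-fold, GPNMB 45.3-fold and APOE 15.1-fold. With the library scaling of edgeR these were 403-fold, 49.5-fold, 60.6-fold and 20.1-fold, so the size depends on the scaling. FABP5 was the exception, at 467 TPM ± 11.7 in THP-1 and 495 TPM ± 92.8 in H1299 (SD, n = 3), with a log2 fold change of 0.18 ± 0.12 (SE) and an adjusted p of 0.163 by edgeR. By share of reads FABP5 was at 0.839 of its H1299 level, the other direction. Without H1299 labelled control replicate 2 it passed the edgeR test at 0.34 (adjusted p = 0.00944), and with limma on log2(TPM + 1) it was -0.07.

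The responses of both lines were set against each other in one fit of 12 libraries, where 38.7% of genes passed. TREM2, LPL and APOC2 had too few H1299 reads for a response there. Of the 5 genes that could also be tested within H1299, 2 had a response in THP-1 above that in H1299 and 1 had one below it. The log2 difference was 2.94 ± 0.38 (SE; adjusted p = 5.15e-05) for TYROBP, 0.69 ± 0.20 (SE; 0.0154) for APOC1 and -1.07 ± 0.17 (SE; 0.000259) for GPNMB by edgeR. APOC1 lost its call with the replicate number as a block (adjusted p = 0.0735 by edgeR). The fit of 12 libraries takes the spread of each gene over both lines, although H1299 replicates varied more. Within H1299 alone the SE was larger, at 0.56 for TYROBP, 0.23 for APOC1 and 0.25 for GPNMB. The p-values of the differences may therefore be too small. FABP4 had too few reads to be tested within H1299 and entered this fit through its THP-1 reads, so its value is not a measured difference of responses. That value was 3.39 ± 1.06 (SE; adjusted p = 0.0205), and its call was lost without H1299 labelled control replicate 1 (1.55, adjusted p = 0.398), the library with 10 of the 14 reads, or without H1299 labelled DCBLD2 replicate 3 (2.89, adjusted p = 0.0502). APOE (0.25 ± 0.24, SE) and FABP5 (0.13 ± 0.17, SE) did not pass the test. FABP5 passed it without H1299 labelled control replicate 1 (0.36, adjusted p = 0.0117).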

How the data were processed

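RNA-seq of 12 libraries was analysed (4 groups of 3). The submitters' processing notes name hg38, RSEM, HISAT2, StringTie 1.3.1, Bowtie2 2.2.8 and fastp 0.18.0. For annotation and strand, nothing is given in the sources used here. Each gene has a TPM value and an estimated count as deposited by the authors. Estimated counts were rounded and tested with edgeR 4.0.16 (R 4.3.3): quasi-likelihood test, TMM scaling, filterByExpr (minimum 10 counts), Benjamini-Hochberg adjustment over all genes, called at an adjusted p under 0.05. Each cell line was fitted alone, and all 12 libraries together for comparisons between lines. Alternatives used limma 3.58.1 on log2(TPM + 1) and log2(TPM + 0.1) for genes with a mean of at least 0.5 TPM, DESeq2 1.42.0, other filters and scaling, a replicate block and leaving out each library. The steps were tested on simulated data. Replicates differed by more than sampling noise (chi-square per gene 1.55 to 2.30 in THP-1 and 10.8 to 36.6 in H1299). Members and lists were chosen with earlier results of these data known. Named list genes are up to 4 per list called in THP-1 with the smallest p; 2 of these are left out here. The genes most like TREM2 are the 5 with the highest Pearson correlation among genes with at least 5 TPM in 1 group. Positions come from GENCODE release 29 (GRCh38).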

Additional observations from a re-analysis of the deposited data

Results flagged for a closer look

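The responses of 3 genes differed between the cell lines by the test of the difference itself (edgeR, 12 libraries). The log2 differences, THP-1 minus H1299, were 2.94 for TYROBP, 0.69 for APOC1 and -1.07 for GPNMB. The SE of each difference was below that within H1299 alone, because the fit takes the spread over both lines. Its p-values may therefore be too small. APOC1 lost its call with the replicate number as a block (adjusted p = 0.0735 by edgeR). TYROBP rose in THP-1 and was lower in H1299, there on only 55 reads in labelled control and 12 in labelled DCBLD2. In H1299 it passed the filter on low counts only through labelled control. That H1299 call was lost without labelled control replicate 2 (adjusted p = 0.0641 by edgeR) or 3 (0.0799). It was also lost without labelled DCBLD2 replicate 1 (0.0918) or 2 (0.137). GPNMB fell in THP-1, and in H1299 its groups overlapped. FABP4 also passed this test, at 3.39, but with only 14 H1299 reads it could not be tested within that line, and the call was lost without H1299 labelled control replicate 1 (adjusted p = 0.398).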

How the results depend on the processing

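Depth limits the H1299 values, where TREM2 and LPL had 0 reads and APOC2 had 1. In THP-1, 7 of the 9 genes kept their direction and call in all 15 alternatives, with TREM2 at 2.68 to 2.81 and GPNMB at -0.65 to -0.57. LPL reversed with limma on log2(TPM + 1) and log2(TPM + 0.1) (log2 fold changes of -0.0506 and -0.0507, adjusted p = 0.169 and 0.170), and lost its call with all 12 libraries in one fit (adjusted p = 0.172). With the common spread of H1299 and a likelihood ratio test, a setting chosen after seeing the data, LPL (adjusted p = 0.659) and FABP5 (0.141) lost their calls and 4531 genes were called in THP-1 in place of 8941. FABP5 between the lines reversed on both TPM scales (-0.0669 and -0.0670). APOC1 in H1299, never called, reversed when replicate 1 of labelled control (0.11) or of labelled DCBLD2 (0.02) was left out, within a range of -0.31 to 0.11 over the libraries left out. Leaving out 1 library gave 9 to 9 members called in THP-1, 0 to 1 in H1299, 8 to 9 between lines and 3 to 4 in the difference of responses. It gave 514 to 3158 genes in H1299 in place of 2669 (514 without labelled DCBLD2 replicate 2, 1374 without its replicate 1 and 1649 without labelled control replicate 3), 8467 to 8719 in THP-1, 11978 to 12423 between lines and 4663 to 5986 in the difference. All 12 libraries in one fit gave 5056 genes in H1299. Replicate numbers did not pair the libraries: same-numbered libraries had correlations of deviations of -0.12, -0.43 and -0.42 in H1299 and 0.02, 0.05 and -0.03 in THP-1. Some differently numbered H1299 libraries did share deviations. Labelled control 1 with labelled DCBLD2 2 gave 0.40, control 2 with DCBLD2 3 gave 0.54 and control 3 with DCBLD2 1 gave 0.37. The other differently numbered H1299 pairs gave -0.27, -0.13 and 0.05. With the replicate number as a block, 8990 genes were called in THP-1, 1797 in H1299, 10947 between lines and 4243 in the difference, where APOC1 had an adjusted p of 0.0735, and 9, 1, 8 and 3 members were called. The cause of these shifts was not tested.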
